A study of Sus scrofa with 6 samples.

Results

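Chromatin accessibility was examined at the myosin binding protein C genes MYBPC1, MYBPC2 and MYBPC3 and at their relative MYBPH, in single-cell ATAC-seq libraries of pig somites and myotomes. Every peak that touched 1 of the 4 gene bodies, or the 10 kb on either side, was taken from the peak list of each library, and overlapping peaks of different libraries were merged into regions. The 4 loci held 47 of the 294825 merged regions, namely 17 at MYBPC1, 11 at MYBPC2, 8 at MYBPC3 and 11 at MYBPH. The family was selected on the stage difference that the MYBPC3 window had shown in these same libraries, so the stage values of these genes are a description without p-values, and nothing is read from which of them passed a threshold between stages. Breed played no part in that choice and was tested.

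There were 6 libraries, 1 for each of 3 stages in purebred Tibetan pigs (ZZ) and in Duroc × Tibetan pigs (DZ). Somites, the embryonic segments from which trunk muscle arises, were taken at E18 and E21 (E, embryonic day), and E28 was represented by myotomes, the somite compartment that forms muscle. Each library was a pool of 5 embryos from 1 sow. Stage, tissue, sow and library therefore cannot be told apart for any single library, and E28 differs from the earlier stages in dissected tissue as well as in age. A total of 58809 of 64439 barcodes had 2000 to 30000 counts and were kept, 9286 to 11243 per library, with 89816504 to 133037579 Tn5 cut sites per library, and any pair of libraries had 113 to 157 barcodes in common. Levels are given as CPM, the cut sites of a feature in every 1000000 cut sites of its library. Windows of MYF5, MYF6, MYOD1 and MYOG, the myogenic regulatory factors, held between 26.1 and 70.7 CPM and were at 0 in no library.

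Myosin binding protein C lies in the C zone of the sarcomere, where it is anchored to the thick filament of myosin and titin and reaches towards actin, and it tunes how readily myosin heads engage. MYBPC1 encodes the slow skeletal form, MYBPC2 the fast skeletal form and MYBPC3 the cardiac form, in which mutations are a common cause of hypertrophic cardiomyopathy in people. MYBPH encodes a shorter relative, myosin binding protein H, that also binds myosin. In skeletal muscle such genes are activated late, when myoblasts leave the cell cycle and fuse, under myogenic factors that bind the E-box CAGCTG and MEF2 factors that bind an A/T-rich site.

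The 250 bases before each gene start were read from the RefSeq annotation of Sscrofa11.1 to show how differently the 4 promoters are built. Capitals mark CAGCTG, which reads the same on both strands, and a MEF2-type site, here CTA and TAG with 4 bases between them on either strand. The MYBPC1 promoter lies at chr5:82651238-82651487 on the minus strand, that of MYBPC2 at chr6:55281741-55281990 on the plus strand, that of MYBPC3 at chr2:15247429-15247678 on the plus strand and that of MYBPH at chr9:113884545-113884794 on the minus strand.
MYBPC1 promoter: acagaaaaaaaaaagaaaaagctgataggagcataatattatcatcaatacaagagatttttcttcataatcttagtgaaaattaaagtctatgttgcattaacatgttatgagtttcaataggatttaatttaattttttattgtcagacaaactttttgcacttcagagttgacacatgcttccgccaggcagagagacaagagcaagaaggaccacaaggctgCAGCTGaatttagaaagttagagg
MYBPC2 promoter: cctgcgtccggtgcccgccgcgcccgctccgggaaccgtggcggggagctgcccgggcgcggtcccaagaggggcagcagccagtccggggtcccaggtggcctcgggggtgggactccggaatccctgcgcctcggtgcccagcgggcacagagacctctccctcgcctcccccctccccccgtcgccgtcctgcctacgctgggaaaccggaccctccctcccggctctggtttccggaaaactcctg
MYBPC3 promoter: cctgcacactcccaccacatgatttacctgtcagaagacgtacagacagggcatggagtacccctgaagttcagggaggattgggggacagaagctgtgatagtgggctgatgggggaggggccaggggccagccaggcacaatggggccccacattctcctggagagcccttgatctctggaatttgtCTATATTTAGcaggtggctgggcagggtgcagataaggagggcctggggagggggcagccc
MYBPH promoter: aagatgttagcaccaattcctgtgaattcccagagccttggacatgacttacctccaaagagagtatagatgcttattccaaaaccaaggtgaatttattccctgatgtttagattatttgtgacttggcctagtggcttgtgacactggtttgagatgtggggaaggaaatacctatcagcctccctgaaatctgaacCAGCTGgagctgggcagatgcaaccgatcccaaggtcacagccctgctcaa

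The promoters of MYBPC1 and MYBPH each held 1 CAGCTG, that of MYBPC3 held 1 MEF2-type site and that of MYBPC2 held neither. Among 19559 promoters of protein-coding genes of the same length, 13.6% held CAGCTG and 2.31% held the MEF2-type site. Base composition set MYBPC2 apart, with 74.8% G + C and 26 CpG dinucleotides against 1 CpG in each of the other promoters. G + C made up 32.8% of the MYBPC1 promoter, 46.0% of the MYBPH promoter and 59.2% of the MYBPC3 promoter. The letters GAGGAA, the core bound by the blood cell factors SPI1 and SPIB whose genes neighbour MYBPC3 and MYBPC2, were in none of the 4 on either strand, and 22.0% of all promoters held them.

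Called peaks at the 4 loci became fewer and narrower with stage. E18 libraries had 39 (ZZ) and 40 (DZ) peaks there, E21 libraries 36 and 37, and E28 libraries 22 and 26. The sequence under these peaks was 47006 and 41701 bp at E18, then 31183 and 32911 bp at E21 and lastly 17510 and 17602 bp at E28. Peaks over the whole genome also covered less sequence at later stages, 168 to 191 Mb at E18 against 102 to 108 Mb at E28. The E28 libraries had the fewest kept cut sites, 89816504 (ZZ) and 98654857 (DZ). The E18 libraries had the most, 133037579 (ZZ) and 124725894 (DZ). Peaks were called in each library separately, and the part of library depth in fewer, shorter or missing peaks was not tested. Of the 47 regions, 21 (44.7%) had no peak in either E28 library, where it was 49.6% of all 294825 regions. No region at the 4 loci had peaks in both E28 libraries and in no earlier one, or in all libraries of 1 breed and none of the other, patterns shown by 2.23% and 0.0956% of all regions. MYBPC1 region 9 had a peak in E28 DZ alone (0.487 CPM). CPM was lower at E28 than at E18 in both breeds in 27 regions (57.4%, all regions 41.4%), higher in both in 5 (10.6%, all regions 19.9%), and neither in the other 15, which include regions at 0 in all E18 and E28 libraries. Where a library had no peak, its value is given as 0 because cut sites were counted only inside the peaks of that library.

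**Figure D1:**
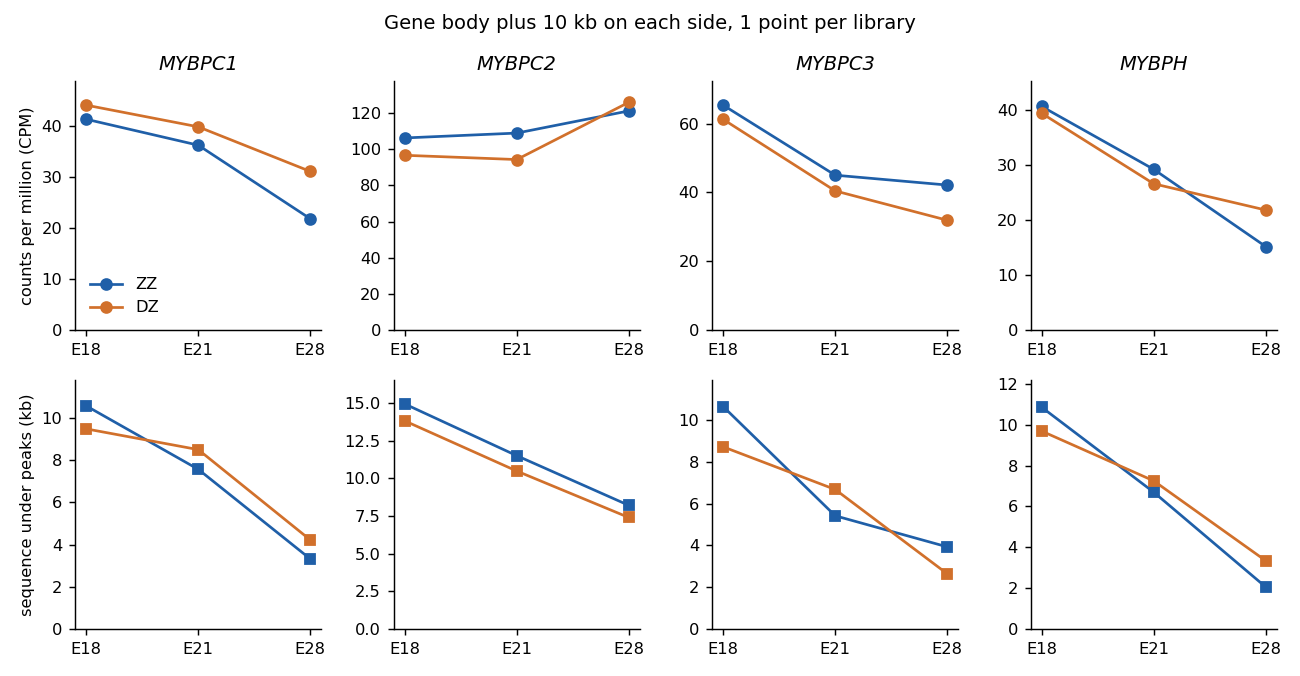
Top row, CPM (y axis) in the gene body plus 10 kb on each side at E18, E21 and E28 (x axis), with 1 point per library, blue for ZZ and orange for DZ. Bottom row, the sequence under called peaks in the same windows in kb, which fell at all 4 loci while CPM rose from 106 and 96.7 to 121 and 126 at MYBPC2.

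Summed over body and flanks, MYBPC2 was the most accessible locus and the only one of the 4 whose CPM was higher at E28 than at E18, whereas per covered base all 4 were higher. The MYBPC2 window held 106 (ZZ) and 96.7 (DZ) CPM at E18, then 109 and 94.3 at E21 and lastly 121 and 126 at E28. Much of that level and of its rise lay beyond the gene end, over the starts of FAM71E1 and EMC10. The region there held 43.9 and 40.6 CPM at E18 and 61.2 and 65.3 at E28. For the MYBPC2 body with 10 kb before its start alone, the log2 ratio of E28 to E18 was -0.05 in ZZ and 0.13 in DZ. The MYBPC3 window held 65.3 and 61.2 CPM at E18, then 45 and 40.4 at E21 and lastly 42.1 and 31.9 at E28. Both E28 libraries lay below the E18 libraries at MYBPC3 and above them at MYBPC2.

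The MYBPC1 window held 41.4 and 44.1 CPM at E18, then 36.3 and 39.9 at E21 and lastly 21.8 and 31.1 at E28. The MYBPH window held 40.7 and 39.5 CPM at E18, then 29.3 and 26.6 at E21 and lastly 15.2 and 21.9 at E28. At both loci the E28 libraries were the lowest, with ZZ below DZ. Because each library sums over all cells, fewer cells of a kind and fewer cut sites per cell cannot be told apart in these sums.

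The fitted log2 fold change from E18 to E28 was -0.74 ± 0.14 (SE, 6 libraries in the fit) for MYBPC1, 0.26 ± 0.09 for MYBPC2, -0.82 ± 0.10 for MYBPC3 and -1.15 ± 0.19 for MYBPH. By an edgeR quasi-likelihood test, 44.3% of 25765 gene windows were called between these stages, 5.06% between E18 and E21 and 8.83% between E21 and E28. These shares are background for the values of the 4 genes, which are no test because the choice of the family used stage. From E18 to E21 the fitted changes were -0.17 ± 0.14, 0.0032 ± 0.094, -0.57 ± 0.10 and -0.52 ± 0.19 in the same order of genes. From E21 to E28 they were -0.57 ± 0.14, 0.25 ± 0.09, -0.25 ± 0.10 and -0.64 ± 0.19. The larger step thus fell before E21 for MYBPC3 and after E21 for MYBPC1 and MYBPC2, without a test of that order.

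Dividing by the length under peaks turned the direction of 3 loci. When the fit took covered length as an offset, the change from E18 to E28 was 0.67 for MYBPC1, 1.13 for MYBPC2, 0.75 for MYBPC3 and 0.79 for MYBPH, where the median of all windows was 0.61. In CPM per kb of peak, MYBPC3 held 6.14 and 7.02 at E18 against 10.7 and 12.1 at E28. Single regions did not all follow, and the MYBPC1 start went from 10.3 and 11.2 CPM per kb of peak at E18 to 4.30 and 3.21 at E28.

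**Figure D2:**
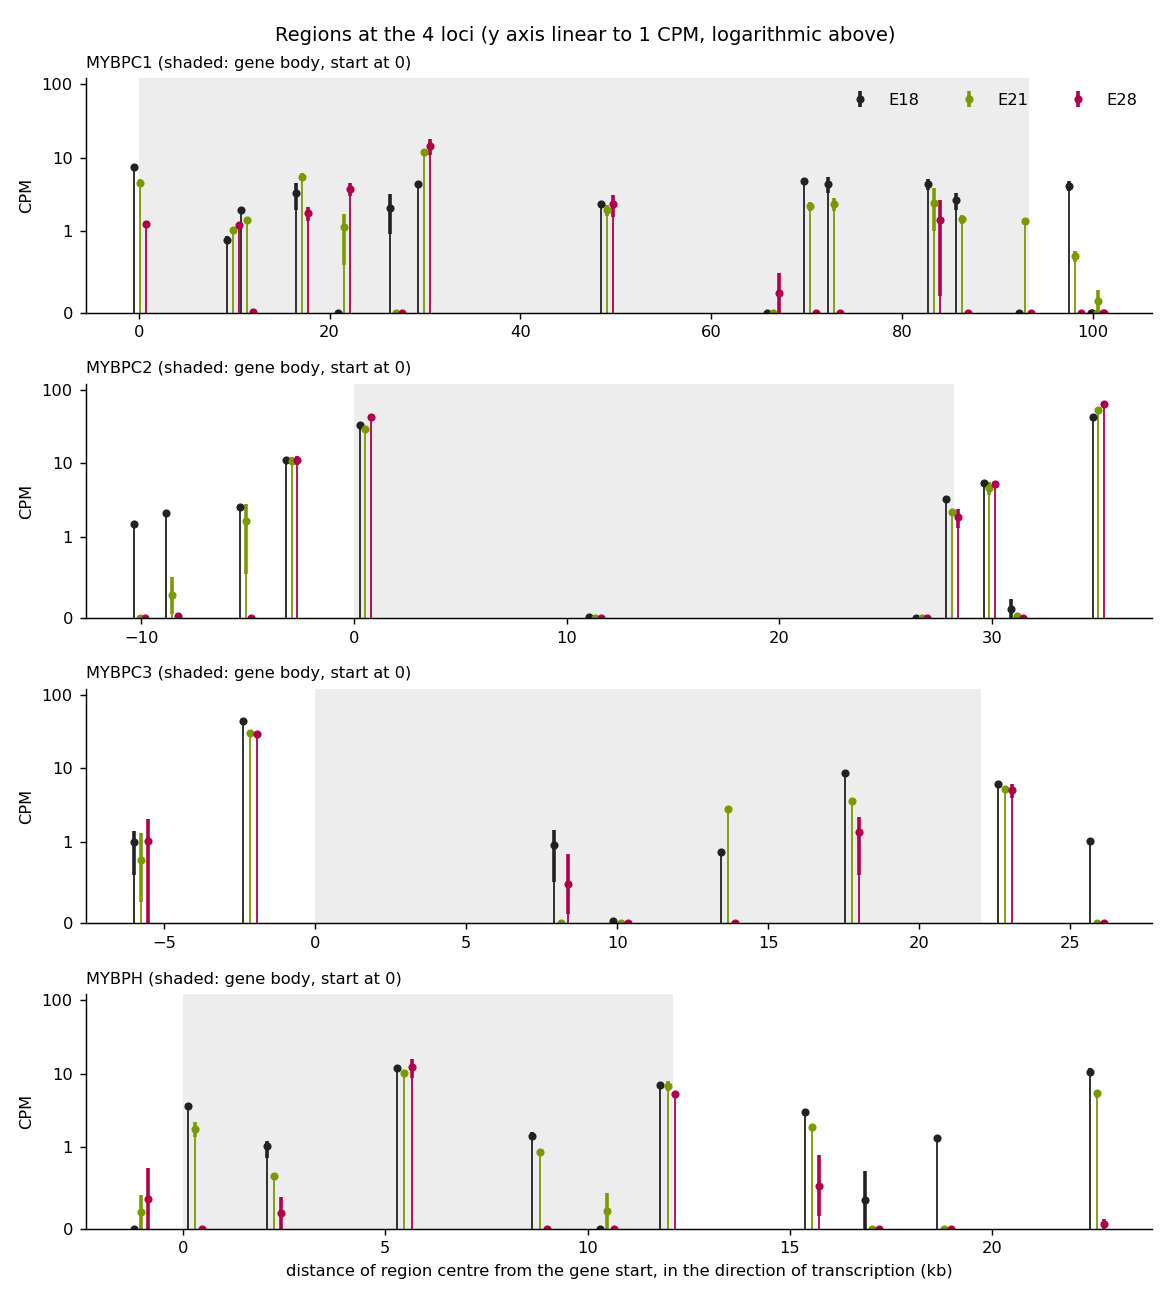
CPM of every region (y axis, linear up to 1 and logarithmic above) against the distance of its centre from the gene start in kb (x axis), for E18 (black), E21 (green) and E28 (red). Points are the mean of the ZZ and DZ library, thick bars span both, and shading marks the gene body. The tallest stems stand upstream of MYBPC3, at the MYBPC2 start, and beyond the MYBPC2 end over the starts of FAM71E1 and EMC10.

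MYBPC1, on chromosome 5 from 82557975 to 82651237 on the minus strand, differed between stages in where its accessible regions lay. Regions are numbered in the direction of transcription. At E18 the region over the gene start, region 1, held most counts (17.5% in ZZ and 17.8% in DZ of the locus), and from E21 on region 7, in an intron about 30 kb into the gene, held most, with 30.5% and 31.5% at E21 and 50.1% and 57.8% at E28. Region 7 also overlaps LOC110260787, a long non-coding RNA gene annotated on the same strand inside MYBPC1.

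Region 1 (chr5:82650739-82651442), the start, held 7.22 and 7.87 CPM at E18, then 5.21 and 3.96 at E21 and lastly 1.15 and 1.34 at E28. Region 7 (chr5:82620740-82621846) held 4.28 and 4.43 CPM at E18, then 11.07 and 12.5 at E21 and lastly 10.9 and 18.0 at E28. Start and intron moved in opposite directions, and in neither region did the E18 and E28 libraries overlap. The fitted log2 changes from E18 to E28 were -2.65 ± 0.30 for region 1 and 1.65 ± 0.26 for region 7. Per covered base they kept their direction, with -1.59 and 1.35 against a median of 0.42 over all 78533 regions tested.

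Region 5 (chr5:82629347-82630182), also intronic, had no peak at E18, held 0.582 and 1.72 CPM at E21 and reached 3.05 and 4.52 at E28, the same direction as region 7. Regions 10 and 11, in introns further into the gene, went the other way. Region 10 held 4.21 and 5.30 CPM at E18 and 2.51 and 1.86 at E21, region 11 held 3.33 and 5.50 and then 2.83 and 1.88, and neither had a peak at E28. Region 4 held 4.59 and 1.97 CPM at E18, then 4.82 and 6.19 at E21 and lastly 2.14 and 1.38 at E28, with DZ above ZZ at E21 and below it otherwise. Regions 15 to 17 lay beyond the gene end in or near LOC106510406, another non-coding gene, and region 15 held 4.80 and 3.47 CPM at E18 and no peak at E28.

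Region 2 (chr5:82641130-82641627), an intronic region named here after its values were seen, stayed between 0.849 and 1.26 CPM in all 6 libraries. Region 7 is shown because it held most counts of the locus from E21 on. Region 2 is shown because it was open more often in the cells with most open muscle markers, a set chosen after seeing the data and given further on. The middle 300 bases of region 2 lie at chr5:82641225-82641524 and those of region 7 at chr5:82621175-82621474, both printed on the minus strand with CAGCTG in capitals.
MYBPC1 region 2: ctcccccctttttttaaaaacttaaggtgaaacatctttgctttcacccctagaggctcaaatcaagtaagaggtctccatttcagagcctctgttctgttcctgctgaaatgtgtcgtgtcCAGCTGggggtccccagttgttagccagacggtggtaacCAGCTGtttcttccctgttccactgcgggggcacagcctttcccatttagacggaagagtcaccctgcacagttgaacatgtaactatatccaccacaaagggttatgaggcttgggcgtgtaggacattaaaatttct
MYBPC1 region 7: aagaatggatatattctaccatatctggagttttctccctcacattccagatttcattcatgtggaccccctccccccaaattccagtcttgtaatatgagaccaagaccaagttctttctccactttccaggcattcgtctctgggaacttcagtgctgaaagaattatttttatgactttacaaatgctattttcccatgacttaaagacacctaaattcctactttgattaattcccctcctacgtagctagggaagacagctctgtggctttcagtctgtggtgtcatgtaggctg

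Region 2 held CAGCTG at 2 places and region 7 at none, and neither held the MEF2-type site. Over the middle 300 bases of all 78533 regions with a peak in every library, 24.1% held CAGCTG, 3.05% the MEF2-type site and 29.7% GAGGAA on either strand. G + C was 48.0% in region 2 and 41.7% in region 7, where the median of all regions was 51.7%.

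MYBPC2, on chromosome 6 from 55281991 to 55310184 on the plus strand, had nearly all of its counts in merged regions that also touched a neighbouring gene. SPIB, an ETS factor of B cells and dendritic cells, ends 1109 bp before it, and FAM71E1 ends 431 bp behind it on the opposite strand. Of its 11 regions, 9 touched POLD1, SPIB, FAM71E1 or EMC10, and the others were 2 stretches of 14 and 16 bp called in E18 ZZ with 5 counts between them. Nearly every count of this window therefore lay in a region that another gene shares.

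Region 5 (chr6:55280596-55284446) covered the MYBPC2 start and the last bases of SPIB and held 34.6 and 32.1 CPM at E18, then 32.2 and 26.7 at E21 and lastly 40.7 and 44.0 at E28. Region 11 (chr6:55315099-55318848), over the paired starts of FAM71E1 and EMC10, a subunit of a complex that inserts proteins into the endoplasmic reticulum membrane, held 43.9 and 40.6 CPM at E18, then 53.9 and 51.4 at E21 and lastly 61.2 and 65.3 at E28. Region 11 alone took 41.3% to 54.5% of the counts of the window. Both E28 libraries exceeded both E18 libraries in these regions, and the fitted changes were 0.30 ± 0.12 for region 5 and 0.53 ± 0.10 for region 11.

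The remaining regions of MYBPC2 were lower. Region 4 (chr6:55278189-55279929), inside SPIB, held 9.38 to 12.5 CPM in all libraries and was lower in DZ than in ZZ at each stage. Region 9, inside FAM71E1, held 3.66 to 5.56 CPM, and region 8, over the last exon of MYBPC2, held 1.32 to 3.51 CPM. Region 3, inside SPIB, held 2.50 and 2.53 CPM at E18 and had no peak at E28, while regions 1 and 2 reached at most 1.55 and 2.23 CPM, both in E18 ZZ.

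MYBPC3, on chromosome 2 from 15247679 to 15269714 on the plus strand, lies 1999 bp behind the end of SPI1, the ETS factor PU.1 of myeloid and B cells, and 1068 bp from the end of MADD, a regulator of Rab GTPases. Region 2 (chr2:15243164-15247893), which covers the last exons of SPI1 and at its widest the MYBPC3 start, held 68.2% to 85.2% of the counts of the window. It held 45.9 and 43.5 CPM at E18, then 32.9 and 27.6 at E21 and lastly 30.9 and 27.2 at E28, a fitted change from E18 to E28 of -0.67 ± 0.09. The drop lay between E18 and E21, and the E21 and E28 libraries overlapped. Per covered base the change was 0.65, because the stretch under peaks shrank from 4637 and 4525 bp to 1839 and 1813 bp. The median per covered base was 0.42 over all regions tested.

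The shape of region 2 decided what a window around MYBPC3 counted. At E18 and E21 each library had 1 peak there, which ran from within SPI1 to the MYBPC3 start at E18 and to less than 1 kb before it at E21. At E28 the peak was split, with the main part at chr2:15244221-15245572 in ZZ (28.4 CPM) and chr2:15244252-15245644 in DZ (25.7 CPM) and a small part of 2.46 and 1.52 CPM nearer to MYBPC3. The main parts ended 107 bp (ZZ) and 35 bp (DZ) outside a limit of 2 kb before the MYBPC3 start.

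A window of the gene body plus 2 kb before the start therefore gave a log2 ratio of E28 to E18 of -3.36 in ZZ and -4.60 in DZ, and a window with 3 kb gave -0.73 and -0.95. With 10 kb the values were -0.68 and -0.97, and with the body alone -4.23 and -6.25. At E18 the whole joined peak counted in every one of these windows, whereas at E28 its main part entered only from 3 kb on. Widths other than 2 and 10 kb were chosen after seeing the data. Over the same widths the ratios of MYBPC1 did not move, those of MYBPH moved from -0.23 to -0.18 in DZ alone, and those of MYBPC2 moved from 0.14 to -0.05 in ZZ and from 0.40 to 0.13 in DZ as regions inside SPIB entered.

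**Figure D3:**
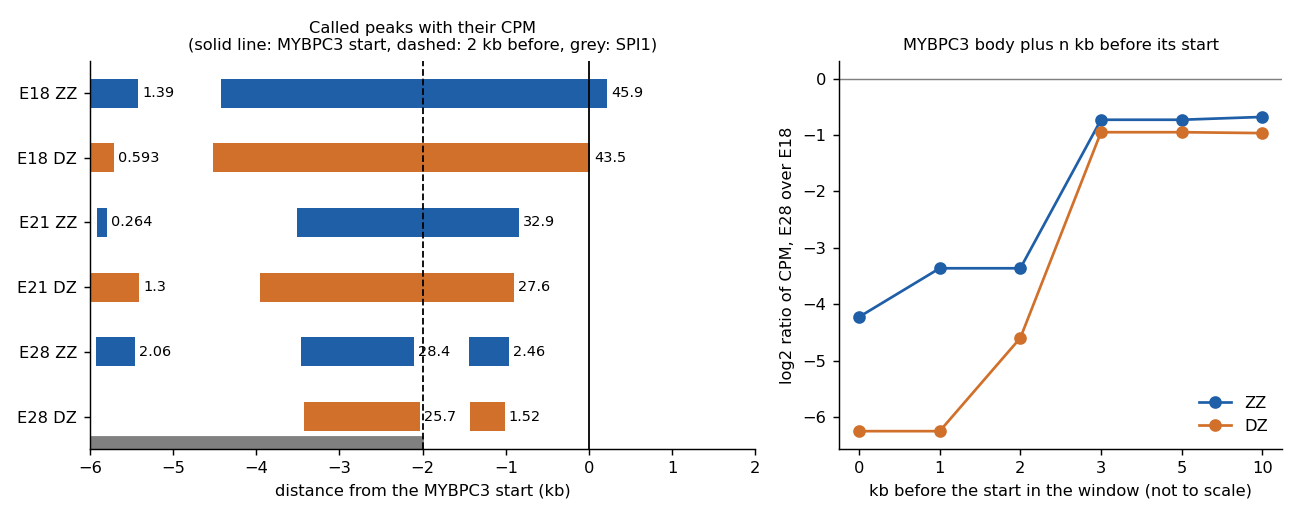
Left, called peaks of each library between 6 kb before and 2 kb behind the MYBPC3 start (x axis in kb), with the CPM of each peak beside it, the start as a solid line, 2 kb before it as a dashed line and SPI1 in grey. Right, log2 ratio of CPM at E28 to E18 (y axis) for windows with a growing length before the start (x axis), which moved from -3.36 to -0.73 in ZZ and from -4.60 to -0.95 in DZ between 2 and 3 kb.

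The sequence of MYBPC2 region 4 is shown because it lies in the neighbouring blood cell factor and not in MYBPC2. Its middle 300 bases lie at chr6:55278851-55279150 on the plus strand, with 202 coding bases of SPIB. The stretch at chr2:15246307-15246606 on the plus strand, under the small E28 peaks between SPI1 and MYBPC3, is printed after them with its CAGCTG in capitals.
MYBPC2 region 4: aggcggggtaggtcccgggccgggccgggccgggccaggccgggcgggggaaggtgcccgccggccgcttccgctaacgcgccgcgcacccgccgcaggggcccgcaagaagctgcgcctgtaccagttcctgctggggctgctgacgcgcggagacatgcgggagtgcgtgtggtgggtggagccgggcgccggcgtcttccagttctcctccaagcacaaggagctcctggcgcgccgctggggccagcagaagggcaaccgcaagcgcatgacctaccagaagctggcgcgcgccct
SPI1 to MYBPC3 interval: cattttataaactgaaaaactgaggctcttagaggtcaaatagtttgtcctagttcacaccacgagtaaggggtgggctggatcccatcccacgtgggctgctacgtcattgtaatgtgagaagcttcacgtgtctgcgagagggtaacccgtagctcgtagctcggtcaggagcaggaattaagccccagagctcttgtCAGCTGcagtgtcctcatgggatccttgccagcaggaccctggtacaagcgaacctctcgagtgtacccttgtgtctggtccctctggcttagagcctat

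G + C was 74.3% in MYBPC2 region 4, above the upper decile of 67.7% over all regions, and 52.3% in the interval, and the stretches held 36 and 10 CpG. Over the whole main E28 peaks of MYBPC3 region 2, G + C was 66.1% (ZZ) and 65.4% (DZ) and the observed to expected ratio of CpG was 0.589 and 0.586. At E28 the most open sequence of the MYBPC3 window thus lay in the last part of a neighbouring gene. At E18 and E21 the joined peak ran past the end of that gene, so its counts cannot be placed on either side.

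Inside MYBPC3, region 6 (chr2:15264187-15266704), over exons near the end of the gene, held 7.90 and 9.18 CPM at E18, then 3.25 and 3.95 at E21 and lastly 2.16 and 0.598 at E28. Its fitted change from E18 to E28 was -2.80 ± 0.59, and -0.40 per covered base, where the median of all regions tested was 0.42. Region 5, intronic, held 0.910 and 0.850 CPM at E18, rose to 2.84 and 2.74 at E21 and had no peak at E28, so both breeds had their highest level at E21. Region 7, between the ends of MYBPC3 and MADD and reaching into MADD in all libraries but E28 DZ, held 4.0 to 6.64 CPM. Regions 1 and 3 stayed at or below 2.06 CPM.

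MYBPH, on chromosome 9 from 113872439 to 113884544 on the minus strand, overlaps the end of ADORA1, the adenosine A1 receptor gene, which runs on the opposite strand, and CHI3L1, a chitinase-like protein gene, ends 996 bp before it. The MYBPH start lost its peak at E28. Region 2 (chr9:113883702-113884789) over the start held 3.65 and 3.5 CPM at E18 and 1.39 and 2.17 at E21, and no peak was called there at E28. All E21 values lay below the E18 values.

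Region 4 (chr9:113877389-113880757), over exons in the middle of the gene, was the strongest and held 12.1 and 11.5 CPM at E18, then 11.2 and 8.96 at E21 and lastly 8.86 and 15.6 at E28. It took 29.2% to 71.3% of the counts of the window. Its E28 level was below the E18 level in ZZ and above it in DZ. Region 7, over the last exon and within ADORA1, held 4.99 to 7.84 CPM.

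Regions in ADORA1 behind the end of MYBPH were also lower at E28. Region 11 (chr9:113860899-113863022) held 11.8 and 9.39 CPM at E18 and 4.73 and 6.08 at E21, and at E28 no peak reached within 10 kb of MYBPH, where ZZ had a stretch of 25 bp with 11 counts just outside. Region 8 held 2.65 and 3.34 CPM at E18, then 2.06 and 1.65 at E21 and lastly 0.902 and 0.152 at E28. Its change of -2.85 ± 0.76 came to 0.01 per covered base, below the median of 0.42 over all regions tested. Without peaks that touch another gene, the change of the MYBPH window from E18 to E28 was -0.37, and in the body with 2 kb of upstream sequence it was -0.53, beside -1.15 for the whole window. The window of MYOG, myogenin, which lies within 100 kb of MYBPH, went the other way. It rose between E18 (36.0 and 38.6 CPM) and E28 (64.0 and 70.7 CPM, log2 0.82 ± 0.09, edgeR adjusted p = 0.00304). MYOG is given for its place near MYBPH and does not stand for the muscle markers as a set. By the same test 6 of 18 skeletal muscle marker windows passed as lower at E28, and 4, with MYOG among them, passed as higher. The windows of MYF5 (log2 0.11 ± 0.18), MYF6 (0.39 ± 0.23) and MYOD1 (0.27 ± 0.13) did not pass.

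The middle 300 bases of MYBPH region 4 (chr9:113879112-113879411, minus strand) are shown because of its excess in the cells with most open muscle markers, given further on. That set of cells was chosen after seeing the data. E18 DZ had no such excess, and that of E18 ZZ was far smaller than at later stages.
MYBPH region 4: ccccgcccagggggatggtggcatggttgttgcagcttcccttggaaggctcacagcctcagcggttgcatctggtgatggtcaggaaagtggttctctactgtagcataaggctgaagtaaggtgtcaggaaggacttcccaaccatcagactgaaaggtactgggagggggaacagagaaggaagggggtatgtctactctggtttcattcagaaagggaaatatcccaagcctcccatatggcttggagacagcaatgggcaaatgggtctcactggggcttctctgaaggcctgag

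This stretch was intronic, had 53.7% G + C, and held neither CAGCTG, the MEF2-type site nor GAGGAA.

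Of the 47 regions, 17 (36.2%, where it was 26.6% of all merged regions) had a peak in all 6 libraries and were tested, 6 at MYBPC1, 5 at MYBPC2 and 3 each at MYBPC3 and MYBPH. Between E18 and E28, 6 of these were called, where 37.1% of all regions tested were. They were MYBPC1 region 7 and MYBPC2 region 11, with higher levels at E28, and MYBPC1 region 1, MYBPC3 regions 2 and 6 and MYBPH region 8, with lower levels. MYBPC3 region 2 holds most of the counts that the choice of the family rested on, so its call is no test, and the other stage calls are likewise a description. The median log2 change of the 17 was -0.34, beside -0.02 over all regions. Between E18 and E21, 2 were called (MYBPC1 region 7, higher, and MYBPC3 region 2, lower), where 6.47% of all were. Between E21 and E28, 1 was called (MYBPC1 region 1, lower), where 7.04% of all were. The number called between E18 and E28 was 2 without the E18 DZ library, where 10.5% of all regions were called. The calls that involve E21 were lost without any 1 of the E18 or E21 libraries. Such fits leave 1 library at a stage, and calls in these contrasts also became fewer over all regions. Between E21 and E28 more member regions were called without either E28 library, and so were more of all regions. The remaining 30 regions lacked a peak in at least 1 library and were not tested.

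No difference between DZ and ZZ passed the test at any of the 4 genes. By the edgeR quasi-likelihood test with stage as a block, 0.0% of 25765 windows and 0.0% of 78533 regions were called. In that test 1496 windows (5.81%) and 3857 regions (4.91%) had an unadjusted p under 0.05, close to the share that the threshold itself gives. DESeq2 called 735 windows (2.85%) and 159 regions (0.202%). The log2 fold change of DZ over ZZ was 0.28 ± 0.11 (SE) for the MYBPC1 window (edgeR adjusted p = 0.803, higher in DZ at 3 of 3 stages) and -0.18 ± 0.08 for the MYBPC3 window (adjusted p = 0.803, lower in DZ at 3 of 3 stages). By the same edgeR test it was -0.07 ± 0.08 for MYBPC2 (adjusted p = 0.872) and 0.14 ± 0.15 for MYBPH (adjusted p = 0.864).

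**Figure D4:**
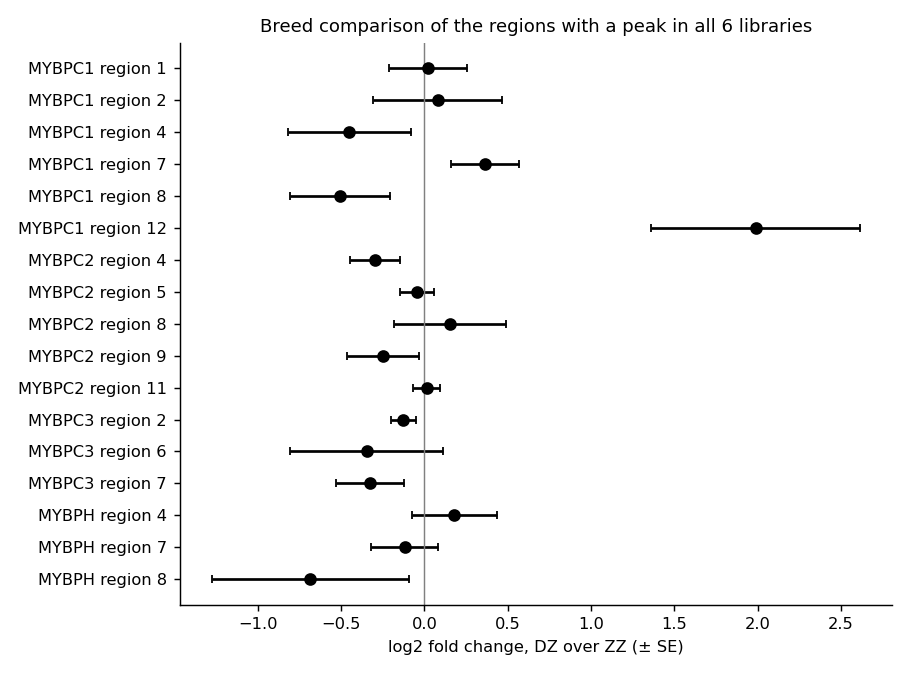
Log2 fold change of DZ over ZZ with its standard error (x axis) for the 17 regions with a peak in all 6 libraries (y axis), from the fit with stage as a block. Most points lie within 0.5 of 0, and MYBPC1 region 12 stands apart at 1.99.

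Among the 17 regions, 7 were higher and 10 lower in DZ, with log2 values between -0.68 and 1.99, and the smallest adjusted p was 0.848. The widest gap was at MYBPC1 region 12 (chr5:82567487-82568376), intronic near the end of the gene. It held 3.64 CPM in ZZ and 5.21 in DZ at E18, then 1.02 and 3.88 at E21 and lastly 0.212 and 2.66 at E28, so DZ was higher at every stage and the ratio of DZ to ZZ was largest at E28. The fit gave 1.99 ± 0.63 (unadjusted p = 0.0199, edgeR adjusted p = 0.848), and 0.66 per covered base. In E28 ZZ the peak was 49 bp long with 19 counts, against 535 bp with 262 counts in E28 DZ. Each breed was represented by 3 sows, 1 per stage.

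The cells in which the regions were open were examined with windows (gene body plus 2 kb before the start) of marker genes of skeletal muscle. MYH3 and MYH8 were not in the annotation and MYOG was left out as a near neighbour of MYBPH, so 17 markers entered. Cells with at least 3 of these windows open made up 32.5% to 49.3% of a library, and among them the named regions were open at 0.97 to 1.16 times the rate of cells of the same depth. A narrower definition, chosen after seeing the data, took the 2% of cells of each library with most open marker windows above the number expected at their depth. It held 186 to 241 cells per library with a median of 7 to 10 open skeletal markers where 3.07 to 3.84 were expected, and 119 to 301 cells lay within 0.5 windows of the limit. These cells are 1 end of a range and not a cell type.

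**Figure D5:**
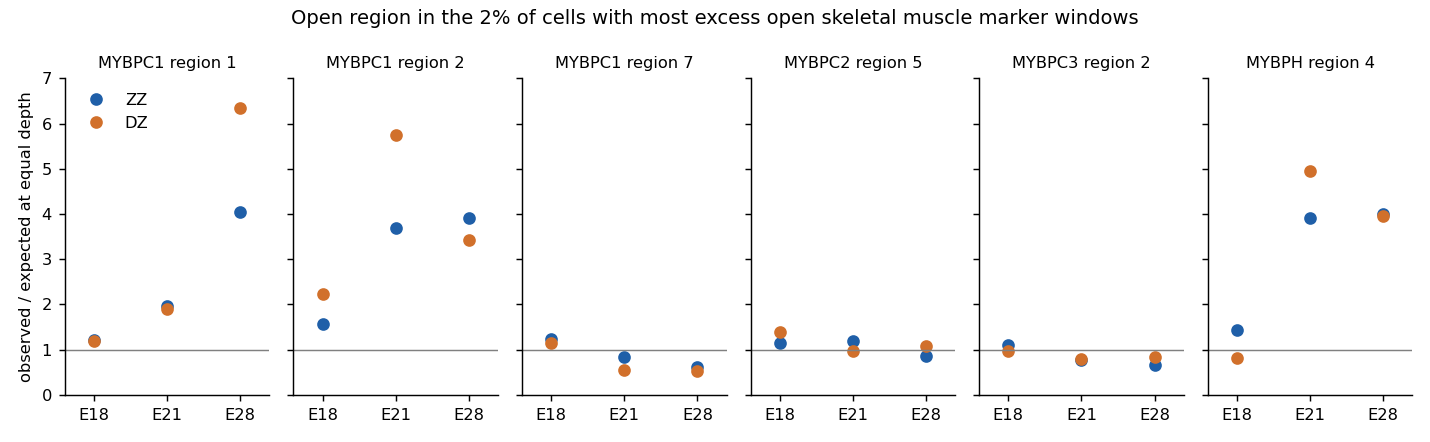
Cells with a count in a region among the 2% of cells with most excess open skeletal muscle marker windows, divided by the number expected from cells of the same depth (y axis), by stage (x axis) for ZZ (blue) and DZ (orange). The ratio at MYBPH region 4 was 0.81 to 1.43 at E18 and 3.91 to 4.95 afterwards, and at MYBPC3 region 2 it stayed between 0.67 and 1.10.

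In the muscle-marker-rich cells MYBPH region 4 was open in 312 cells where 102 were expected, a ratio of 3.07. By library, 11.6% (ZZ) and 6.76% (DZ) of these cells had a count there at E18, then 35.5% and 34.7% at E21 and lastly 26.3% and 44.0% at E28, where 8.13% and 8.33%, 9.07% and 7.01%, and 6.57% and 11% were expected. The excess was thus seen in all E21 and E28 libraries. At E18 the share was below expectation in DZ, and above it in ZZ by far less than at later stages. A ratio as high was reached by 2.73% of the regions with a peak in all libraries, and the median of all such regions was 0.947. As this set of cells was chosen after seeing the data, shares of regions under it are a description and lend no support.

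MYBPC1 region 2 was open in 47 of these cells where 13.4 were expected, a ratio of 3.51 that 1.85% of regions reached. Because this region was named after its values were seen, that share is a description and lends no support. By library the counts of open cells were 3, 4, 9, 12, 10 and 9, from E18 ZZ to E28 DZ, so each library rests on few cells. At the MYBPC1 start the ratio was 1.22 and 1.2 at E18, then 1.96 and 1.91 at E21 and lastly 4.04 and 6.35 at E28, with 10 and 14 open cells at E28. Its pooled ratio was 1.89, which 8.23% of regions reached. The level of the start over all cells fell with stage, while the share of the marker-rich cells with a count there was 5.81% and 6.76% at E18 and 5.16% and 7.33% at E28.

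At other regions of MYBPH the pooled ratio was 1.89 at region 2 over the start, 1.90 at region 5 and 2.30 at region 8, on 36, 17 and 44 open cells. All 3 lay below 2.4, the 95th percentile over regions with a peak in all libraries. Regions 2 and 5 had no peak at E28, so their ratios rest on E18 and E21 alone. At region 8 the ratio ranged from 0 to 5.44 between libraries. MYBPC1 region 7, in contrast, was open less often in these cells than at equal depth from E21 on, with ratios of 1.23 and 1.14 at E18, then 0.849 and 0.561 at E21 and lastly 0.627 and 0.537 at E28. MYBPC2 region 5 had ratios of 0.866 to 1.39, MYBPC2 region 11 a pooled ratio of 0.943, and MYBPC3 region 2 ratios of 0.669 to 1.10. The strong regions that touch SPI1, FAM71E1 and EMC10 thus had no such excess in these cells. Region 7 of MYBPC1 was also below expectation in cells rich in cardiac (0.684) and endothelial (0.667) markers.

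The same cells had a median of 4 to 4.5 open cardiac markers, where 2.72 to 4.65 were expected. Some of them also belonged to the 2% of cells with most excess cardiac markers. These were 6 of 241 (ZZ) and 5 of 207 (DZ) at E18, 20 of 186 and 24 of 199 at E21, and 28 of 194 and 22 of 191 at E28. The skeletal and cardiac sets thus shared cells, more of them from E21 on, so their ratios are not independent. Among those cardiac-marker-rich cells the ratio was 1.59 at MYBPH region 4, 1.0 at MYBPC3 region 2 and 1.05 at MYBPC3 region 6. The 95th percentile over regions with a peak in all libraries was 1.45. Cells rich in myeloid markers had a ratio of 1.03 at MYBPC3 region 2 and 1.2 at MYBPC2 region 4, regions that overlap SPI1 and SPIB, both under the 95th percentile of 1.33. In erythroid-marker-rich cells MYBPC3 region 2 had a ratio of 1.2 and in endothelial-marker-rich cells 0.934, under 95th percentiles of 1.33 and 1.66.

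Levels of other cell type markers moved with stage beside the 4 loci. Between E18 and E28, 20.4% of all windows were called with a gain and 23.9% with a loss, and the counts of the lists stand beside these shares. The summed windows of 17 cardiac markers held 1283 and 1240 CPM at E18, then 1018 and 911 at E21 and lastly 795 and 894 at E28, with 9 lower and 0 higher at E28 than at E18 by the edgeR test. The 16 erythroid markers fell from 873 and 822 CPM to 755 and 671 (6 lower, 1 higher), with GATA1, EPB42 and RHAG each at 0 in 1 or more libraries. The 11 endothelial markers fell from 713 and 734 to 555 and 561 CPM (6 lower, 2 higher), and the 15 myeloid markers held 703 to 759 CPM in all libraries (6 lower, 2 higher). The 18 skeletal muscle markers held 1025 to 1134 CPM (6 lower, 4 higher). The part of these shifts in the stage values of the 4 genes was not tested.

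Other genes of the thick and thin filaments were counted in the same way, again beside 20.4% of all windows called higher and 23.9% lower from E18 to E28, with a median of -0.04. From E18 to E28, 6 of 29 tested thick filament genes were called higher and 9 lower, with a median log2 change of -0.04, and of 26 thin filament and Z disc genes 1 was higher and 8 were lower, with a median of -0.08. The genes higher at E28 included MYL2, a regulatory light chain (2.84 ± 0.50), MYOM1, which crosslinks the M band (1.06 ± 0.18), MYLPF, the fast skeletal light chain (0.57 ± 0.08), and MYBPHL, the closest relative of MYBPH (0.34 ± 0.07). The genes lower at E28 included LMOD2, which elongates thin filaments (-3.18 ± 0.51), MYLK3, the cardiac myosin light chain kinase (-2.98 ± 0.18), TTN, titin (-1.17 ± 0.19), and TNNT2, cardiac troponin T (-1.2 ± 0.14). MYBPHL held 75.6 and 74.6 CPM at E18 and 99.9 and 95 at E28. From E18 to E21 the thick filament list had 1 gene higher and 2 lower, and from E21 to E28 it again had 1 higher and 2 lower. Of all windows, 2.09% were higher and 2.97% lower in the first of these contrasts and 1.97% and 6.85% in the second. No gene of either list was called between breeds. Among the genes not in the annotation used here were MYH3, MYH6, MYH8 and MYH13.

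Across the 6 libraries the windows of MYBPC1 and MYBPH were most alike, with a Pearson correlation of log2(CPM + 1) of 0.94. The other pairs had 0.76 for MYBPC3 and MYBPH, 0.55 for MYBPC1 and MYBPC3, and -0.55 to -0.78 for MYBPC2 with each of the rest. Over 1 Mb away, the windows most like MYBPC1 were ST18, ABLIM1 and ARHGAP26 (0.99 each), and those most like MYBPC2 were NCKAP5L, LOC110256305 and LOC110255441 (1.0 each). The windows most like MYBPC3 were NR1D1, ADA and SH3BGRL3 (1.0 each), and those most like MYBPH were LOC110256500 (1.0), HHIPL1 (0.99) and GATA6 (0.99), the last a factor of heart and gut development. A correlation of at least 0.95 was reached by 43 windows for MYBPC1, 126 for MYBPC2, 774 for MYBPC3 and 241 for MYBPH, of 18125 to 18199 compared. These values describe 6 libraries that differ in both depth and stage, and they carry no p.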

How the data were processed

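Cells of 6 pools of embryos were profiled by 10x Genomics scATAC-seq. The authors processed the reads with Cell Ranger ATAC 1.2.0 (Seurat 3.1.1 and Signac 0.2.2 are also in the submitters' processing notes), called peaks in each library separately and deposited raw counts of Tn5 cut sites per peak and barcode. Barcodes with 2000 to 30000 counts were kept, doublets were not called, and counts were summed per library. Peaks overlapping by at least 1 bp between libraries were merged, and gene windows were the body plus 10 kb on each side. Sums were tested with edgeR 4.0.16 (quasi-likelihood, TMM, filterByExpr, stage and breed, 2 residual degrees of freedom, Benjamini-Hochberg, 0.05) in R 4.3.3, after a check on simulated counts, with DESeq2 1.42.0 as an alternative. With 1 library per stage and breed, p-values rest on the spread left after stage and breed. In that spread sow, library and any difference between breeds in stage change cannot be told apart. Named regions were the one over each gene start and the 5 others with the highest CPM per gene, plus any called between breeds, and regions outside this rule were named after their values were seen. Expected numbers of open cells came from 20 depth bins per library. The members, gene lists and tests were chosen with earlier results of these data known. The values of 1 further marker gene and the sequence of 1 further region are not reported here.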

Additional observations from a re-analysis of the deposited data

Results flagged for a closer look

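MYBPH region 4 stood out because the breeds went in opposite directions between E18 and E28. The ratio of CPM at E28 to E18 was 0.73 in ZZ (95% counting interval 0.670 to 0.795) and 1.35 in DZ (1.26 to 1.45). The intervals cover counting error between single libraries and are too narrow, since cut sites mostly come in pairs from 1 fragment (90.1% to 92.4% of values were even), and the difference between breeds was not tested. The stretch under peaks shrank from 3202 to 1177 bp in ZZ and from 2589 to 2119 bp in DZ over the same stages. In CPM per kb of peak both breeds rose, from 3.79 to 7.53 in ZZ and from 4.46 to 7.36 in DZ.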

How the results depend on the processing

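Stage values of the 4 genes are a description, so they are given here as values, and nothing is read from which passed the threshold. Covered length as an offset reversed the E28 against E18 change of MYBPC1 (0.67), MYBPC3 (0.75) and MYBPH (0.79), as given beside the windows, and gave 1.13 for MYBPC2. It likewise reversed E21 against E18 for MYBPC1 (0.15), MYBPC3 (0.12) and MYBPH (0.027), with MYBPC2 at 0.38. The median of all windows was 0.21 in that contrast, above the values of these 3 genes. For E28 against E21 it reversed MYBPC1 (0.52), MYBPC3 (0.64) and MYBPH (0.76), with MYBPC2 at 0.75, beside a median of all windows of 0.38. The offset turned the DZ against ZZ value of MYBPC2 (0.067), MYBPC3 (0.0019) and MYBPH (-0.072). It called 4 member regions for E21 against E18 and 6 for E28 against E21, where 18.1% and 31.1% of all regions were called. DESeq2 gave 0.26 for MYBPC2 in E28 against E18, -0.52 for MYBPH in E21 against E18, and -0.56, 0.26, -0.24 and -0.63 for MYBPC1, MYBPC2, MYBPC3 and MYBPH in E28 against E21, with 5 regions called there and 19.7% of all. The near-zero E21 against E18 change of MYBPC2 turned sign with DESeq2 (-0.0011), RLE factors (-0.0011), 2 kb windows (-0.23) and peaks open in at least 1% of barcodes (-0.0024). The E21 against E18 value of MYBPC3 was -0.62 with 2 kb windows, -0.65 without peaks of neighbouring genes, -0.54 with 1% peaks and -0.56 with no breed term. The E28 against E18 value of MYBPH was -0.53 with 2 kb windows and -0.37 without neighbours' peaks. For E28 against E21, MYBPC1 without neighbours' peaks gave -1.08, MYBPC3 with 2 kb windows gave -3.37, and MYBPC2 without neighbours' peaks turned to -0.31. Without those peaks the DZ against ZZ value turned to 2.21 for MYBPC2 and to 0.14 for MYBPC3. At MYBPC2 the region 8 peak reaches FAM71E1 in E18 ZZ alone, which left 5 counts against 375 in E18 DZ. In E28 DZ alone region 5 was split, and its part with 172 counts does not touch SPIB and was kept. Testing all regions called 13, 0 and 0 for the 3 stage contrasts, where 14.9%, 0% and 0% of all were called, 1% peaks called 3 for E28 against E18 (44.8% of all) and left 9 regions shared by all libraries, and barcodes with 4000 to 60000 counts called 0 for E28 against E21 (6.71% of all). The number of named regions with a ratio of at least 1.5 in marker-open cells was 0 of 24, 5 with the top 2% of cells and 6 when these came from barcodes with 4000 to 60000 counts. MYBPC3 windows with 2, 1 and 0 kb before the start gave mean log2 ratios of -3.98, -4.81 and -5.24. Beyond the offset, the cause of these changes was not tested.

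Leaving out 1 library at a time gave, for MYBPC1, MYBPC2, MYBPC3 and MYBPH, E28 against E18 values of -0.94 to -0.51, 0.14 to 0.40, -0.92 to -0.67 and -1.47 to -0.83, with 2 to 8 regions called (10.5% to 39.3% of all). E21 against E18 gave -0.30 to -0.03, -0.068 to 0.083 (with -0.044 without E18 DZ and -0.068 without E21 ZZ), -0.64 to -0.49 and -0.70 to -0.34, with 0 to 3 regions (0% to 21.7%). E28 against E21 gave -0.78 to -0.36, 0.13 to 0.39, -0.37 to -0.12 and -0.96 to -0.32, with 0 to 6 regions (0% to 20.6%). DZ against ZZ gave 0.14 to 0.37, -0.15 to -0.01, -0.23 to -0.10 and -0.070 to 0.27, with 0 regions. The MYBPH value turned to -0.070 without either E28 library. The breed fit already compares DZ with ZZ within stage. No paired analysis was possible because the labels carry no replicate numbers by which libraries could be matched further.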
